A study of Mus musculus with 10 samples.

Results

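The fibroblast growth factor (FGF) genes of the mouse lung were followed as a signaling module of ligands, receptors and the Sprouty and Spred inhibitors. Members were taken by name: all protein-coding genes whose symbol begins with Fgf, Fgfr, Spry or Spred followed by a digit. This rule found 35 of the 54532 genes in the expression values, namely 22 genes of the Fgf family, 4 receptors, 4 Sprouty and 3 Spred genes, and 2 genes (Fgfr1op and Fgfr1op2) that match by name only. Whole lungs of 10 wild-type C57BL/6J mice were sequenced, 5 with increased pulmonary flow (IPF) and 5 sham-operated. IPF was made at postnatal day 7 (P7) by fistula surgery, in which a needle puncture joins the aorta and the vena cava in the abdomen. Sham mice had the same operation without the puncture, and all lungs were taken at P30. Levels are in FPKM, the fragments scaled to gene length and library size, as the authors computed them.

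In the FGF pathway a secreted ligand binds a receptor tyrosine kinase together with heparan sulfate on the cell surface, and the receptor then activates the RAS and ERK cascade. In the lung, FGFs pass between mesenchyme and epithelium: they drive branching before birth and act in the forming and repair of alveoli afterwards. Sprouty and Spred proteins are inhibitors of the same cascade, and several of them are induced by it, which closes a negative feedback loop. The Fgf11 to Fgf14 proteins differ from the other family members in that they stay inside the cell and bind sodium channels.

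Depth ranged from 15483046 to 19026843 reads on genes per lung, recovered from FPKM times gene length. The lung identity was plain, with Sftpc, the surfactant protein of alveolar type 2 cells, at 9437 to 16514 FPKM and Ager of alveolar type 1 cells at 706 to 935 FPKM. Sex-linked transcripts divided the groups without overlap: Xist was at 34.1 ± 8.43 FPKM in the IPF and 0.0493 ± 0.0225 FPKM in the sham lungs (SD, n = 5 each), and all 4 Y-linked genes listed were lower in the IPF lungs. The study's methods name pups of both sexes, and in these 10 lungs surgery and sex cannot be told apart here for any gene. The circadian clock list also moved with the group, with 13 of 14 genes at a limma adjusted p under 0.05 and a summed level of 93.8 to 170.5 FPKM in the IPF and 303.2 to 360.4 FPKM in the sham lungs. Among the cell type lists, the summed endothelial markers lay at 1122 to 1284 FPKM in the IPF and 988 to 1042 FPKM in the sham lungs, and the median log2 fold change of the 6 markers was 0.21. Of these, Cldn5, a tight junction gene, passed the test. Tek did not pass but was higher in each IPF than in each sham lung (log2 fold change 0.26, limma adjusted p = 0.0636), and the other 4 overlapped. Of 6 alveolar fibroblast markers, Wnt2 and Pdgfra rose (log2 fold changes 0.65 and 0.35, limma adjusted p = 0.00597 and 0.0212). The other 4 did not pass, with log2 fold changes of -0.24 for Tcf21, -0.0050 for Npnt, 0.23 for Inmt and 0.18 for Col13a1. The summed level of the list, made up largely of Inmt and Npnt, overlapped between the groups. Summed neuronal markers were low, at 2.39 to 4.04 FPKM in the IPF and 4.48 to 6.72 FPKM in the sham lungs. The part of sex, clock phase and cell makeup in the results on FGF genes was not tested, and in whole tissue fewer cells of a type and less RNA per cell cannot be told apart.

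Of the 35 genes, 23 had a mean of at least 0.1 FPKM and were tested with limma on a log2 scale (FPKM + 0.1); p-values were adjusted by Benjamini-Hochberg over the 20448 genes that reached this mean. Fold changes are on this scale, which understates changes of low genes. An adjusted p under 0.05 was reached by 6 of them. Fgf18, Fgf11, Fgfr4 and Spry1 rose in the IPF lungs, and Fgf2 and Fgfr1 fell. That is 26.1% of the 23, where 5.85% of all genes tested passed (3.71% higher, 2.14% lower). Among protein-coding genes with a mean of at least 1 FPKM, 8.4% passed, and of the 17 members at that level 6 did. None of the 23 also passed a log2 fold change of 1 in either direction, a limit that 1.14% of all genes tested passed with limma, and 9 had an unadjusted p under 0.05, as did 19.5% of all genes tested. The median log2 fold change of the 23 genes was 0.012, beside 0.0016 over all genes tested. The secreted ligands and the receptors each held 1 gene that rose and 1 that fell, while the Sprouty and the intracellular Fgf genes each held 1 that rose and the Spred genes none that passed. The groups did not overlap in 6 members (Fgf18, Fgf11 and Spry1 higher, Fgf2, Fgfr1 and Fgfr3 lower), beside 7.29% of all genes tested (4.52% higher, 2.77% lower).

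**Figure D1:**
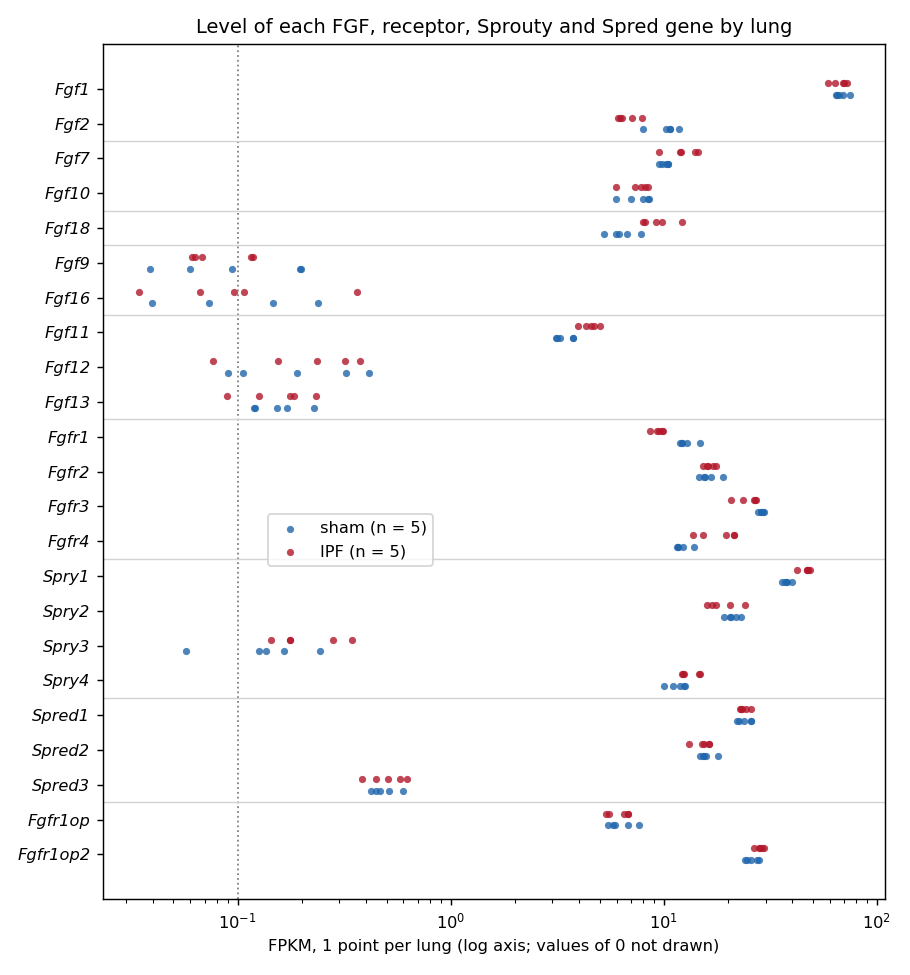
FPKM of the 23 tested genes on a log axis, 1 point per lung (blue, sham; red, IPF; n = 5 each), with grey lines between classes and a dotted line at 0.1 FPKM; values of 0 are not drawn. Fgf1 and Spry1 sit highest, Fgf9, Fgf12, Fgf13, Fgf16 and Spry3 lie near the dotted line, and the groups stand apart for Fgf2, Fgf18, Fgf11, Fgfr1, Fgfr3 and Spry1.

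**Figure D2:**
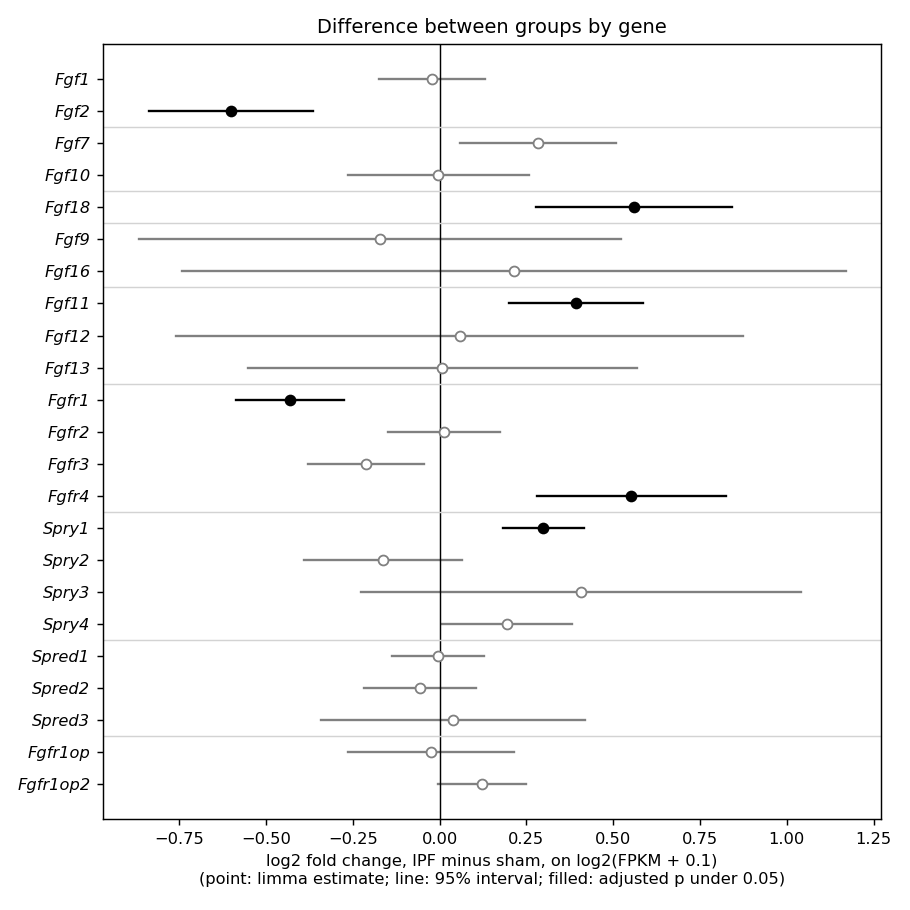
Log2 fold change (IPF minus sham) of the same 23 genes, with the limma estimate as a point and its 95% interval as a line; filled points have an adjusted p under 0.05. The 6 filled points lie between -0.60 (Fgf2) and 0.56 (Fgf18), and the widest intervals belong to genes near 0.1 FPKM.

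Among the 18 secreted ligands, 7 were tested, of which Fgf18 rose, Fgf2 fell and 5 did not pass. Ligand messenger RNA was dominated by Fgf1, which made up 64.6% ± 3.49 of the summed ligand FPKM in the IPF and 66.2% ± 1.58 in the sham lungs (SD, n = 5 each). The sum itself overlapped between the groups, at 96.7 to 110.2 FPKM in the IPF and 94.8 to 113.0 FPKM in the sham lungs. Below Fgf1, the order of the ligands differed: Fgf2 was above Fgf18 in 5 of 5 sham and 0 of 5 IPF lungs, and above Fgf10 in 5 of 5 sham and 1 of 5 IPF lungs. Fgf18 was above Fgf10 in 5 of 5 IPF and 0 of 5 sham lungs.

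Fgf1 (ENSMUSG00000036585, chromosome 18, 38838673 to 38929404), the acidic FGF that can bind all FGF receptors, was at 69.4, 63.8, 70.1, 58.8 and 72.2 FPKM in IPF replicates 1 to 5. In sham replicates 1 to 5 it was at 69.2, 64.0, 65.2, 66.1 and 74.4 FPKM. The groups overlapped, and differed by -0.021 on the log2 scale (95% interval -0.17 to 0.13, limma adjusted p = 0.910), and turned to 0.024 without IPF replicate 4 and 0.0131 without sham replicate 5. The gene lies wholly within Arhgap26 on the opposite strand, which was at a mean of 1.80 FPKM.

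Fgf2 (ENSMUSG00000037225, chromosome 3 of GRCm38, 37348346 to 37410108), the basic FGF and a mitogen of fibroblasts, endothelial and smooth muscle cells, was at 6.33, 7.07, 6.25, 7.92 and 6.09 FPKM in IPF replicates 1 to 5. The sham replicates had 10.7, 10.7, 8.03, 10.2 and 11.8 FPKM. All IPF lungs were below all sham lungs, but IPF replicate 4 and sham replicate 3 nearly met. Fgf2 fell to 0.659 of the sham level (log2 fold change -0.60, SE 0.11, limma adjusted p = 0.00825, exact permutation p = 0.00794, two-sided and the lowest possible with 5 lungs against 5). The adjusted p stayed under 0.05 in all 20 alternatives, at most 0.0276. Nudt6 overlaps the end of Fgf2 on the opposite strand by 5199 bases and was at 0.970 ± 0.323 FPKM in the IPF and 0.980 ± 0.166 FPKM in the sham lungs (SD, n = 5 each), a fraction of the Fgf2 level.

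Fgf18 (ENSMUSG00000057967, chromosome 11, 33117430 to 33147400) encodes a mesenchymal ligand with a role in alveolar and skeletal growth. In IPF replicates 1 to 5 its level was 12.2, 8.19, 7.98, 9.20 and 9.86 FPKM. In the sham replicates it was 6.13, 6.72, 5.98, 5.26 and 7.79 FPKM. Each IPF lung was above each sham lung, with replicate 1 the highest, and the closest pair was IPF replicate 3 and sham replicate 5. Fgf18 rose 1.47-fold (log2 fold change 0.56, SE 0.13, limma adjusted p = 0.0272, exact permutation p = 0.00794), on 104 to 246 reads per lung. This call was lost in fits that left out 1 of several lungs. The limma adjusted p was 0.0529 and 0.0641 without IPF replicates 1 and 4. It was 0.0679, 0.0513, 0.0704 and 0.0670 without sham replicates 1, 2, 3 and 4, and 0.0534 without a variance trend. The log2 fold change without 1 of these lungs was 0.47 to 0.58. Over all genes tested, the fits without 1 of them called 748 to 912 genes with limma, and the fit on all lungs 1196.

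Fgf7 and Fgf10 are made by lung mesenchyme and act on epithelium through the IIIb splice form of Fgfr2. Gene-level values do not separate splice forms. Fgf7 (ENSMUSG00000027208, chromosome 2, 126034658 to 126091185), the keratinocyte growth factor, was at 11.9, 14.1, 9.51, 12.0 and 14.5 FPKM in IPF replicates 1 to 5. In the sham replicates it was at 9.79, 10.5, 9.47, 10.2 and 10.4 FPKM. In 4 of 5 IPF lungs Fgf7 was above all sham lungs, and IPF replicate 3 was within the sham range (log2 fold change 0.28, SE 0.10, limma adjusted p = 0.148, exact permutation p = 0.0397). Without IPF replicate 3 the log2 fold change was 0.37 and passed (limma adjusted p = 0.02). That lung also had the highest summed ciliated airway markers, at 67.7 FPKM where the other lungs had 16.1 to 38.0 FPKM. It was the highest as well for the summed secretory airway, smooth muscle, adventitial fibroblast, myofibroblast and leukocyte markers. Whether this bears on Fgf7 or other members was not tested.

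Fgf10 (ENSMUSG00000021732, chromosome 13, 118669791 to 118792115), the main signal of lung branching, was at 8.18, 7.81, 5.98, 8.44 and 7.35 FPKM in IPF replicates 1 to 5. The sham values were nearly the same, at 8.44, 6.99, 5.98, 8.48 and 8.02 FPKM. The difference was -0.0040 on the log2 scale (95% interval -0.26 to 0.26, limma adjusted p = 0.993). Its sign depended on the lungs used: without IPF replicate 3 it was 0.077, without IPF replicate 5 0.0034, without sham replicate 1 0.037, without sham replicate 4 0.039 and without sham replicate 5 0.019. The ratio of Fgf18 to Fgf10 within each lung was 1.05 to 1.49 in the IPF and 0.620 to 0.9997 in the sham group. That of Fgf7 to Fgf10 overlapped, at 1.42 to 1.97 in the IPF and 1.16 to 1.58 in the sham group. The ratios of Fgf2 to Fgf1 and of Spry1 to Spry2 overlapped too.

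Fgf9 (ENSMUSG00000021974, chromosome 14, 58070547 to 58112720), a signal of the mesothelium and epithelium of the embryonic lung, was near the limit of detection with 3 to 15 reads per lung. It was at 0.0632, 0.116, 0.0683, 0.118 and 0.0608 FPKM in IPF replicates 1 to 5 and at 0.196, 0.0600, 0.0938, 0.0387 and 0.197 FPKM in the sham replicates. A difference was not detectable at this depth (log2 fold change -0.17, 95% interval -0.87 to 0.52). Fgf16, its X-linked relative, was at 0 to 0.365 FPKM over the 10 lungs (log2 fold change 0.21, 95% interval -0.74 to 1.17).

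The remaining 11 secreted ligands had a mean under 0.1 FPKM and were not tested. They are Fgf3, Fgf4, Fgf5, Fgf6, Fgf8, Fgf15, Fgf17, Fgf20, Fgf21, Fgf22 and Fgf23. No read of Fgf4, Fgf6, Fgf15 or Fgf20 was found in any lung. The limit that a count of 0 allows, 3 reads over all lungs, is 0.00376 FPKM for Fgf6 and 0.0104 FPKM for Fgf20, and it covers counting error only. Fgf3, Fgf5, Fgf8, Fgf21 and Fgf23 had 1 to 3 reads in all 10 lungs together, Fgf17 had 11 and Fgf22 had 31. All 3 endocrine FGFs were thus at or near 0: Fgf15 of bile acid control, Fgf21 of energy metabolism and Fgf23 of phosphate control. The neighbours Fgf3, Fgf4 and Fgf15, with 3 reads in all between them, lie on chromosome 7 between 144838083 and 144900953, with gaps of 2.9 and 31.3 kb between them.

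Of the intracellular FGFs, Fgf11 rose, Fgf12 and Fgf13 did not pass, and Fgf14 was under 0.1 FPKM with 43 reads in all. Fgf11 (ENSMUSG00000042826, chromosome 11, 69796068 to 69801857) was at 4.54, 5.01, 4.33, 4.69 and 3.94 FPKM in IPF replicates 1 to 5. The sham replicates had 3.25, 3.74, 3.13, 3.75 and 3.14 FPKM. The groups did not overlap (1.31-fold, log2 fold change 0.39, SE 0.088, limma adjusted p = 0.0241, exact permutation p = 0.00794). The limma adjusted p passed 0.05 without IPF replicates 1 (0.0586), 2 (0.0653) or 4 (0.0663) and without sham replicates 1 (0.0534), 3 (0.0639) or 5 (0.0557). Fgf12 and the X-linked Fgf13 had 6 to 41 reads per lung, with log2 fold changes of 0.058 and 0.0076 and intervals wider than 0.5 to either side.

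The 4 receptors are tyrosine kinases with overlapping ligand ranges, and in mice Fgfr3 and Fgfr4 act together in alveolar formation. Fgfr4 rose, Fgfr1 fell, and Fgfr2 and Fgfr3 did not pass the test. The summed receptor level overlapped between the groups, at 63.3 to 74.5 FPKM in the IPF and 68.2 to 73.3 FPKM in the sham lungs. Its makeup differed: Fgfr4 was 26.3% ± 4.03 of the sum in the IPF and 17.5% ± 1.48 in the sham lungs, and Fgfr1 was 13.7% ± 1.35 and 18.2% ± 1.22 (SD, n = 5 each). Neither share overlapped between the groups, while those of Fgfr2 and Fgfr3 did.

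Fgfr1 (ENSMUSG00000031565, chromosome 8, 25513654 to 25575718), a receptor of mesenchymal and endothelial cells among others, was at 9.85, 8.57, 9.92, 9.31 and 9.54 FPKM in IPF replicates 1 to 5. In sham replicates 1 to 5 it was at 14.8, 12.8, 12.2, 11.9 and 12.2 FPKM. All IPF lungs lay below 10 FPKM and all sham lungs above it, with sham replicate 1 the highest. Fgfr1 fell to 0.742 of the sham level (log2 fold change -0.43, SE 0.071, limma adjusted p = 0.00585, exact permutation p = 0.00794), with 1411 to 2406 reads per lung. Its adjusted p was the smallest of the members and stayed at 0.0196 or less in all 20 alternatives.

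Fgfr4 (ENSMUSG00000005320, chromosome 13, 55152640 to 55168759) was at 19.5, 21.3, 15.3, 21.3 and 13.7 FPKM in IPF replicates 1 to 5. The sham replicates were at 12.3, 11.6, 11.7, 13.9 and 11.7 FPKM. In 4 of 5 IPF lungs Fgfr4 was above all sham lungs, and IPF replicate 5 fell just below sham replicate 4. The rise was 1.47-fold (log2 fold change 0.55, SE 0.12, limma adjusted p = 0.0245, exact permutation p = 0.0159). Its limma adjusted p was 0.0676, 0.0657 and 0.0667 without IPF replicates 1, 2 and 4, and 0.0594, 0.0615, 0.0640 and 0.0569 without sham replicates 1, 2, 3 and 5. Without IPF replicate 5, the lowest of its group, it was 0.00430, and without a variance trend 0.0518. The order of receptors within a lung also differed: Fgfr4 exceeded Fgfr1 in 5 of 5 IPF and 1 of 5 sham lungs, and exceeded Fgfr2 in 3 of 5 IPF and 0 of 5 sham lungs. The ratio of Fgfr4 to Fgfr1, which does not depend on scaling between lungs, was 1.94 ± 0.456 in the IPF and 0.963 ± 0.126 in the sham group (SD, n = 5 each), without overlap.

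**Figure D3:**
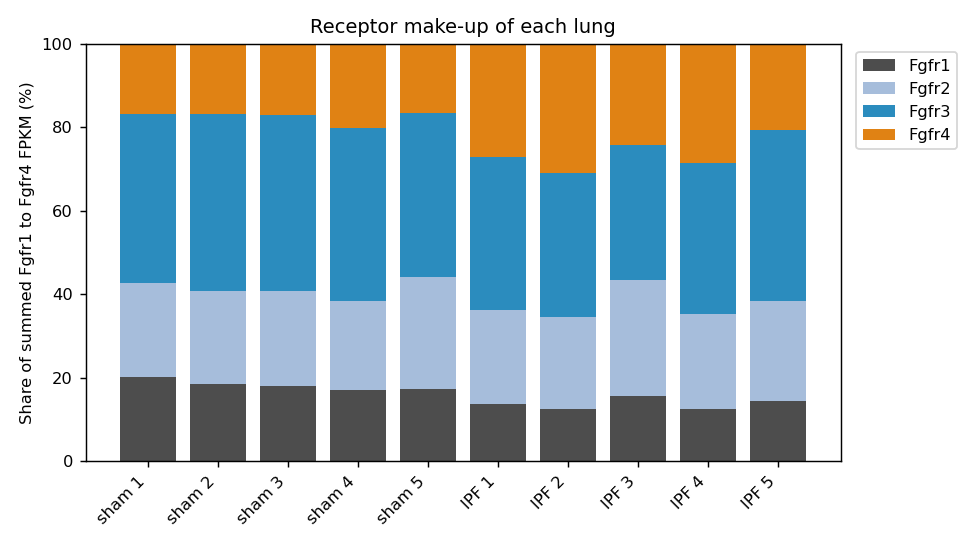
Share of each receptor in the summed FPKM of Fgfr1 to Fgfr4, as stacked bars from 0 to 100% for each of the 10 lungs. The Fgfr4 part is 20.6% to 31.0% in the IPF and 16.6% to 20.1% in the sham lungs, and the Fgfr1 part is 12.5% to 15.7% in the IPF and 17.2% to 20.2% in the sham lungs.

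Fgfr3 (ENSMUSG00000054252, chromosome 5, 33721674 to 33737068) was the receptor with the highest mean in both groups. It was at 26.4, 23.6, 20.6, 26.9 and 27.2 FPKM in IPF replicates 1 to 5 and at 29.6, 29.2, 28.6, 28.6 and 27.7 FPKM in the sham replicates. Each IPF lung was below each sham lung, by as little as 27.2 against 27.7 FPKM. The log2 fold change of -0.21 (SE 0.076) did not pass (limma adjusted p = 0.143, 0.0817 to 0.269 over the alternatives, exact permutation p = 0.00794). The IPF lungs varied more, with a standard deviation of 2.82 FPKM against 0.738 FPKM.

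Fgfr2 (ENSMUSG00000030849, chromosome 7, 130162451 to 133123350), the receptor of Fgf7 and Fgf10 on epithelium, was at 16.1, 15.2, 17.5, 16.98 and 16.01 FPKM in IPF replicates 1 to 5. The sham values of 16.6, 15.4, 15.6, 14.7 and 19.04 FPKM enclosed them, and the log2 fold change was 0.012 (95% interval -0.15 to 0.17, limma adjusted p = 0.953). Its sign turned without IPF replicate 3 (-0.012) or 4 (-0.0010) and without sham replicate 2 (-0.0055), 3 (-0.00030) or 4 (-0.023). The gene as annotated by the authors spans 69 other genes, among them Oat on the same strand at a mean of 121.6 FPKM. Reads from overlapping genes may have been assigned to either.

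Sprouty proteins restrain signaling from receptor tyrosine kinases to ERK. Of the 4 Sprouty genes Spry1 rose and the other 3 did not pass. Spry1 (ENSMUSG00000037211, chromosome 3, 37639947 to 37644598) was at 48.6, 47.4, 47.0, 42.1 and 46.9 FPKM in IPF replicates 1 to 5. In sham replicates 1 to 5 it was at 39.9, 35.8, 38.0, 37.6 and 37.1 FPKM. The groups stood apart, with IPF replicate 4 below the rest of its group, and the rise was 1.23-fold (log2 fold change 0.30, SE 0.054, limma adjusted p = 0.00828, exact permutation p = 0.00794). Spry1 kept an adjusted p under 0.05 without any single lung, and had 0.0509 under quantile normalization, with a log2 fold change of 0.25.

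Spry2 (ENSMUSG00000022114, chromosome 14, 105891947 to 105896819) was at 20.4, 17.6, 16.02, 16.9 and 23.9 FPKM in IPF replicates 1 to 5 and at 20.5, 20.6, 19.2, 23.0 and 21.8 FPKM in the sham replicates. IPF replicates 2, 3 and 4 were below all sham lungs and replicate 5 above them (log2 fold change -0.16, SE 0.10, limma adjusted p = 0.429). Its share of the summed Sprouty level was 21.2% to 27.9% in the IPF and 28.1% to 31.4% in the sham lungs. The shares of Spry1, Spry3 and Spry4 overlapped between the groups. Spry4 (ENSMUSG00000024427, chromosome 18, 38586268 to 38601268) was at 14.8, 12.2, 12.3, 12.4 and 14.6 FPKM in IPF replicates 1 to 5. The sham replicates had 12.4, 9.97, 11.0, 12.6 and 12.0 FPKM, and the groups overlapped (log2 fold change 0.19, SE 0.085, limma adjusted p = 0.238). Spry4 lies 237.4 kb from Fgf1. Spry3, on a scaffold not placed on a chromosome, was at 0.0573 to 0.345 FPKM (log2 fold change 0.41, 95% interval -0.23 to 1.04).

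None of the 3 Spred genes passed with limma, nor had any an unadjusted p under 0.05. Spred proteins block the activation of RAF by RAS. Spred1 (ENSMUSG00000027351, chromosome 2, 117121374 to 117182279) was at 23.3, 23.0, 22.7, 24.2 and 25.8 FPKM in IPF replicates 1 to 5 and at 25.5, 22.6, 21.9, 23.7 and 25.5 FPKM in the sham replicates (log2 fold change -0.0041, 95% interval -0.14 to 0.13). The 2 ranges nearly coincided, and the sign turned without IPF replicate 1 (0.0031), 2 (0.0069) or 3 (0.013) and without sham replicate 1 or 5 (0.021 each). Spred2 (ENSMUSG00000045671, chromosome 11, 19924375 to 20024026) was at 15.4, 13.2, 15.1, 16.3 and 16.3 FPKM in IPF replicates 1 to 5. The sham replicates had 17.9, 15.4, 15.3, 14.8 and 15.8 FPKM (log2 fold change -0.056, 95% interval -0.22 to 0.10). Spred3 was at 0.382 to 0.627 FPKM (log2 fold change 0.039). Fgfr1op, which encodes a centrosomal protein, and Fgfr1op2 are no receptors and did not pass (log2 fold changes -0.026 and 0.12, limma adjusted p = 0.931 and 0.269).

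**Figure D4:**
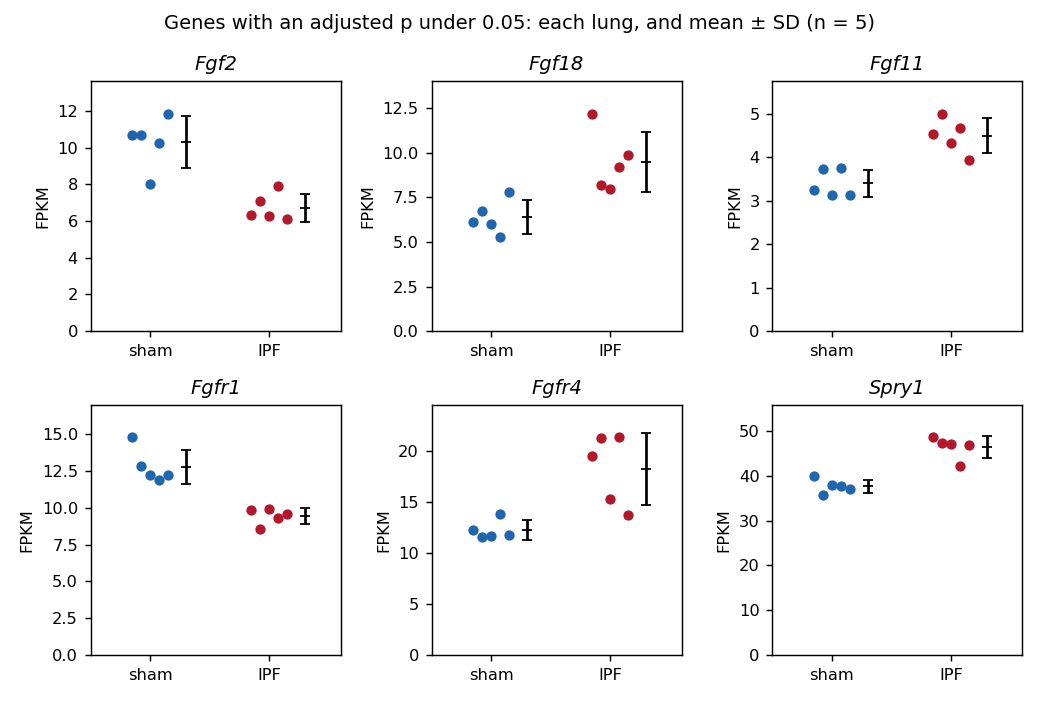
FPKM in each lung of the 6 genes with an adjusted p under 0.05 (blue, sham; red, IPF), with the mean and SD of the 5 lungs beside the points and axes that start at 0. Fgf2 and Fgfr1 are lower and Fgf18, Fgf11 and Spry1 higher in each IPF lung than in each sham lung, and Fgfr4 overlaps by IPF replicate 5.

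Fgf2 and Spry1, which moved in opposite directions, both lie on chromosome 3, with 229.8 kb between them. They are next to each other among the members only, since Nudt6 reaches into the space between them. Promoter sequence was available from RefSeq (GRCm38.p6) for 25 of the 35 members and for 5 of the 6 that passed; Fgfr1 was not among them. The 250 bases before the start are shown for Fgf18 and Spry1, since both rose and their RefSeq start is also the start of the gene in the authors' annotation. Capitals mark matches, on either strand, to the GC box GGGCGG and to the CCAAT box, read as CCAAT.
Fgf18, chr11:33147401-33147650, minus strand: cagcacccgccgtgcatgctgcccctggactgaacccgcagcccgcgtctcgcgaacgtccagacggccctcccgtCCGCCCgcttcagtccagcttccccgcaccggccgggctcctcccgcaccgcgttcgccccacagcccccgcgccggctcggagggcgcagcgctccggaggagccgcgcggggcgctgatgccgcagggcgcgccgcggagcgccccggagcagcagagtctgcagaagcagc
Spry1, chr3:37639697-37639946, plus strand: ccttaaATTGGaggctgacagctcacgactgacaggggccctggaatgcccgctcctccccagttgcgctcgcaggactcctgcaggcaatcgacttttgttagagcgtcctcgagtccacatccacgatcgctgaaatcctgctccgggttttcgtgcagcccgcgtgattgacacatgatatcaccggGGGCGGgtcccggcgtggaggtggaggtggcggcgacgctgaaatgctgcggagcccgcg
The Fgf18 window had a GC content of 77.2% and the Spry1 window of 62.4%. A GC box was found in 32.7% and a CCAAT box in 33.8% of the 32851 promoter windows of this length. Fgf2 and Fgfr4 also held a GC box and Fgf11 a CCAAT box within 250 bases of their RefSeq starts. The E-box CACGTG (6.02% of windows), the TATA box TATAAA (12.4%) and the ETS core CCGGAAG (6.91%) were not found on either strand in any of the 5 windows. These motifs do not overlap each other in the windows shown.

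Of 58 other genes of the pathway, 55 were tested and 5 passed, 3 higher and 2 lower in the IPF lungs. Beside this, 5.85% of all genes tested passed, and 8.4% of protein-coding genes with a mean of at least 1 FPKM. The 5 of 55 are close to the latter share. Among 21 tested co-receptors and matrix modulators Sdc2 rose and Gpc1 fell, both heparan sulfate proteoglycans that hold FGFs at the cell surface. Sdc2 was at 51.0 ± 2.87 FPKM in the IPF and 43.2 ± 3.06 FPKM in the sham lungs (SD, n = 5 each), which is 0.24 on the log2 scale (limma adjusted p = 0.0468). Gpc1 was at 4.11 ± 0.322 and 5.20 ± 0.419 FPKM, without overlap (SD, n = 5 each), which is -0.33 on the log2 scale (limma adjusted p = 0.0340). The Sdc2 call was lost in 13 of 20 alternatives, among them median-of-ratios scaling, quantile normalization, no filter, the replicate block and no variance trend (limma adjusted p up to 0.112). Gpc1 was lost in 7, each of which left out 1 lung (up to 0.0841). Fgfrl1, a receptor-like protein without a kinase, was at 8.75 ± 1.11 FPKM in the IPF and 8.83 ± 0.600 FPKM in the sham lungs (SD, n = 5 each), with limma (adjusted p = 0.938). None of the 21 adaptors and members of the ERK cascade passed with limma, and 0 of them had an unadjusted p under 0.05, beside the 19.5% of all genes tested.

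Of the 13 genes known to be induced by FGF and ERK, Dusp5 and Phlda1 rose, Etv4 fell and 10 did not pass. Dusp5, a phosphatase of nuclear ERK, was at 5.73 ± 0.735 FPKM in the IPF and 4.33 ± 0.274 FPKM in the sham lungs, without overlap (SD, n = 5 each), which is 0.39 on the log2 scale (limma adjusted p = 0.0313). Phlda1 was at 27.9 ± 4.71 and 18.6 ± 2.00 FPKM, with overlap (SD, n = 5 each), which is 0.57 on the log2 scale (limma adjusted p = 0.0178). Etv4, an ETS transcription factor, was at 0.191 ± 0.0581 and 0.455 ± 0.102 FPKM on 6 to 29 reads per lung (SD, n = 5 each), which is -0.94 on the log2 scale (limma adjusted p = 0.0343). Its close relative Etv5 was far more abundant and overlapped between the groups, at 41.0 to 55.4 FPKM in the IPF and 41.5 to 53.1 FPKM in the sham lungs (limma adjusted p = 0.960). Dusp6, a phosphatase of cytoplasmic ERK, was at 39.9 ± 6.72 and 36.7 ± 3.34 FPKM, and Il17rd, a membrane inhibitor of FGF signaling, at 7.61 ± 0.586 and 7.66 ± 0.562 FPKM (SD, n = 5 each), with limma (adjusted p = 0.618 and 0.971). Dusp5 was lost in 10 of 20 alternatives, among them the replicate block, voom and no variance trend (limma adjusted p up to 0.0833), and Etv4 in 9 of the 19 in which it was tested, among them the replicate block and no filter (up to 0.0785). Phlda1 was lost in 3 that left out 1 lung (up to 0.0538), and none of the 5 genes changed direction in an alternative in which it was tested. The count of 5 was not stable to the lungs used. It was 2, 1, 3 and 0 without IPF replicates 1, 2, 3 and 4, and 1, 1, 1 and 2 without sham replicates 1, 2, 3 and 4 (limma; with 0 genes passing, 10 of 55 had an unadjusted p under 0.05, as did 17.4% of all genes tested in that fit).

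Of the 6 members that passed, Fgf2 and Fgfr1 did so in all 20 alternatives and Spry1 in 19. Fgf11, Fgf18 and Fgfr4 lay closer to the limit and were lost in 6, 7 and 8 alternatives, most of which left out 1 lung. The count of 6 was 3 without IPF replicate 1, IPF replicate 4, sham replicate 1 or sham replicate 3, and Fgf2, Fgfr1 and Spry1 were the 3 that remained each time. Over all genes tested, 824, 748, 912 and 797 passed with limma in the same fits, beside 1196 with all lungs. The direction of all 6 was the same in every alternative.

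**Figure D5:**
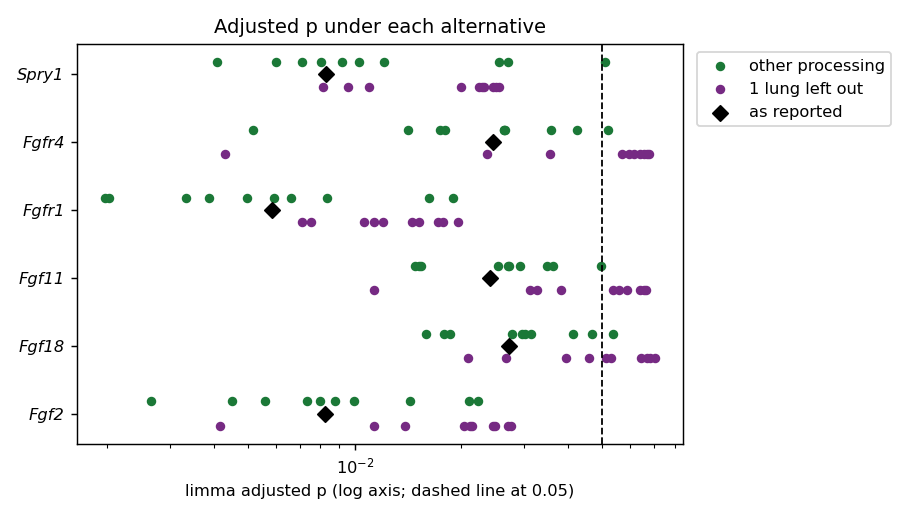
Limma adjusted p (log axis) of the 6 genes as reported (black diamonds), under 10 other ways of processing (green) and with each of the 10 lungs left out in turn (purple), with a dashed line at 0.05. Fgf2 and Fgfr1 stay left of the line, Spry1 crosses it once, and Fgf11, Fgf18 and Fgfr4 cross it when single lungs are left out.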

How the data were processed

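Per the study's methods, read trimming was by Fastp, alignment by HISAT2 and gene quantification by StringTie, and the authors deposited FPKM, 1 value per gene and sample; the submitters' processing notes also list Bowtie 0.12.2. Their methods name GRCm39, but the last gene on chromosome 1 ends at 195323493, past the 195154279 bases of that chromosome in GRCm39, and the positions are those of GRCm38. The authors tested genes with DESeq2, which needs counts. Here limma 3.58.1 (R 4.3.3, trended variances, no covariate) was used on log2(FPKM + 0.1) for genes with a mean of at least 0.1 FPKM, on the whole set of genes. Reads were recovered as whole multiples of 1 step of FPKM times gene length per sample (tolerance 0.02 reads). The fit was tested on simulated data. Alternatives were a pseudocount of 1, no filter, a mean of at least 1 FPKM, median-of-ratios scaling, quantile normalization, array weights, voom on recovered reads, a replicate block, protein-coding autosomal genes only, a fit without the variance trend, and leaving out each lung. The libraries are named NEBNext Ultra in the labels and KAPA in the methods, and whether counting used strand is not given in the sources used here. Two-sided exact permutation tests ran over all assignments of 5 of 10 lungs. Nothing in the labels says that lungs came from separate litters, so p-values measure the spread between these samples. Pairs of lungs within a group differed by more than sampling noise. Members, gene lists and cell type markers were chosen with earlier results of these data known. Values in each lung are given for members that passed or whose groups did not overlap, and for Fgf1, Fgf2, Fgf7, Fgf9, Fgf10, Fgf18, the receptors, Spry1, Spry2, Spry4, Spred1 and Spred2; pathway genes are named if they passed, as are Etv4, Etv5, Dusp6, Il17rd and Fgfrl1. Ratios, shares and the motifs were chosen after seeing the data. How often such ratios and shares part the groups over all genes was not tested.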

Additional observations from a re-analysis of the deposited data

Results flagged for a closer look

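Of 46 groups of 5 lungs scanned over the 23 tested members, 2 held a lung far from the others, where chance gives about 1 in 20. Spry1 in IPF replicate 4 was at 42.1 FPKM, while the other IPF lungs lay between 46.9 and 48.6 FPKM. Fgf16 in IPF replicate 2 was at 0.365 FPKM, with the other IPF lungs between 0.0344 and 0.107 FPKM, on at most 10 reads per lung.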

How the results depend on the processing

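The count of 6 members with a limma adjusted p under 0.05 was 4 to 6 under the other ways of processing and 3 to 7 when each lung was left out in turn. Over all genes tested, 748 to 1619 passed when each lung was left out, beside 1196 with all lungs. The number past the fold change limit was 0 in every alternative, and 6 to 7 members did not overlap between groups when a lung was left out and 5 under quantile normalization. The count of 5 pathway genes was 3 without a filter on low values, 3 without a variance trend and 0 to 5 when each lung was left out; the cause was not tested. Deviations of samples with the same replicate number had correlations of -0.020 to 0.095 across genes, 4 of 5 above 0 and none above the 0.1 set for pairing, so the samples were treated as sharing only a number. With the replicate number as a block 6 members and 2 pathway genes passed, without Dusp5, Etv4 and Sdc2. In 3 of 5 numbers, both samples correlated best with their own number. Members that did not pass changed sign: Fgfr2 to -0.014 under quantile normalization, and Fgf9 to 0.017, Fgf10 to 0.072 and Spred1 to 0.017 with array weights. Leaving out 1 lung gave -0.050 to 0.024 for Fgf1, -0.085 to 0.077 for Fgf10, -0.023 to 0.070 for Fgfr2 and -0.034 to 0.021 for Spred1 (log2 fold changes). Depth limits the genes near 0.1 FPKM, which rest on few reads.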
